A study of Mus musculus with 12 samples.

Results

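The genes of xenobiotic metabolism in the gut were taken here as the cytochrome P450 families Cyp1, Cyp2 and Cyp3 and the Ugt, Gst, Mgst and Sult families. They were chosen by symbol and by level. Of 127 symbols of these families among 23284 genes in the table of FPKM values (fragments per transcript length and per total of mapped fragments), 53 stood at an FPKM of 1 or more in 3 or more libraries out of 12. These were 2 of 3 Cyp1, 11 of 51 Cyp2, 3 of 9 Cyp3, 10 of 21 Ugt, 19 of 22 Gst, all 3 Mgst and 5 of 18 Sult genes. The rule used the levels but neither the milk diet nor the layer of the gut. Of the 74 symbols left out, 57 were listed at 0 in every library.

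The study asked how milk of mothers fed palmitic acid (PA) bears on innate lymphoid cells of type 3 (ILC3s) in offspring. HR-1 hairless mice, a strain with a normal immune system, nursed either from mothers on a normal diet (ND) or from mothers whose chow held added PA until weaning (PA milk). For PA milk, pups born to ND mothers were moved after birth to the mothers fed PA. The study describes no such move for ND, so fostering and milk diet cannot be told apart. At 18 weeks of age, lymphocytes were isolated from the intraepithelial layer (IEL) and the lamina propria (LP) of the small intestine, and ILC3s were sorted by flow cytometry and their RNA sequenced after amplification for low input. The 4 groups, PA IEL, PA LP, ND IEL and ND LP, held 3 libraries each. The methods text gives the gate as Nrp1+, CD25+, Thy1.2+ and CD4+ among lineage-negative cells, and another passage gives CD45+ in place of CD4+. Whether a library pooled animals, and whether the IEL and LP libraries of 1 number came from the same mouse, is not given in the sources used here, so p-values measure the spread between these libraries.

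Enzymes of xenobiotic metabolism work in phases. The P450 enzymes of phase I oxidise drugs, food compounds, steroids and fatty acids, and the phase II enzymes join glucuronic acid (Ugt), glutathione (Gst, Mgst) or sulfate (Sult) to their substrates and so make them easier to excrete. In the small intestine they are best known from absorptive enterocytes, where they form part of the first-pass barrier, while aryl hydrocarbon receptor (Ahr) targets such as Cyp1a1 are also known in gut lymphocytes.

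The libraries differed in complexity and in marker genes. Scaled counts ran from 9376529 to 11710874 in sum per library, and a genome-wide FPKM of at least 1 was reached by 4390 genes in PA IEL replicate 2 and 5637 in PA LP replicate 2, against 7863 in ND IEL replicate 2 and 8406 to 11378 in the other 9. Il7r, the interleukin 7 receptor of innate lymphoid cells, was at 28.5, 49.3 and 39.5 in ND IEL, 167, 0.0242 and 124 in PA IEL, 0, 26.7 and 10.6 in ND LP and 30.9, 0.0304 and 25.4 in PA LP. It was thus listed at or near 0 in PA IEL replicate 2, PA LP replicate 2 and ND LP replicate 1. Ptprc, the leukocyte antigen CD45, was at 37.1, 34.4 and 61.4 in ND IEL, 61.01, 0.0433 and 22.02 in PA IEL, 76.8, 73.8 and 24.5 in ND LP and 22.2, 54.7 and 64.7 in PA LP, near 0 in PA IEL replicate 2 alone. The summed FPKM of 8 leukocyte genes, Ptprc among them, was nonetheless 2518 in that library, the highest of the 6 IEL libraries. The epithelial adhesion gene Epcam was at 849.9, 1133 and 686 in ND IEL, 463, 0.196 and 742 in PA IEL, 53.3, 134 and 379.6 in ND LP and 151, 80.7 and 41.9 in PA LP. Fabp2, the fatty acid carrier of enterocytes, was at 4726, 35069 and 7504 in ND IEL, 902, 385 and 16303 in PA IEL, 69.96, 283 and 432 in ND LP and 443, 98.7 and 14.9 in PA LP, highest in ND IEL replicate 2 and PA IEL replicate 3. Fabp2 was thus found in every library, whereas Il7r was at or near 0 in 3 libraries labelled ILC3, and the values below describe the sorted material as it was. In such bulk RNA, fewer cells of a type and less RNA per cell cannot be told apart.

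Taken as a sum over all families, levels were highest in IEL libraries. Summed over the 53 genes, FPKM was 4669, 7382 and 5256 in ND IEL, 1782, 1627 and 10311 in PA IEL, 869.6, 1930.0 and 2224 in ND LP and 1395, 1389 and 1182 in PA LP. The 3 ND IEL libraries lay above all 6 LP libraries, whereas of PA IEL only replicate 3 did so. The 53 genes made up 0.651% to 0.833% of all FPKM in ND IEL, 1.21% in PA IEL replicate 3, 0.210% and 0.291% in the other two PA IEL libraries, and 0.111% to 0.311% in LP. The highest of the 12 values lay in PA IEL replicate 3 for 29 genes and in ND IEL replicate 2 for 11, together 75.5% of the 53 genes against 19.9% of the 12502 genes tested. The fewest were found in PA IEL replicate 2, where 44 of the 53 genes were under an FPKM of 1, followed by PA LP replicate 2 with 39 and ND LP replicate 1 with 36.

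**Figure D1:**
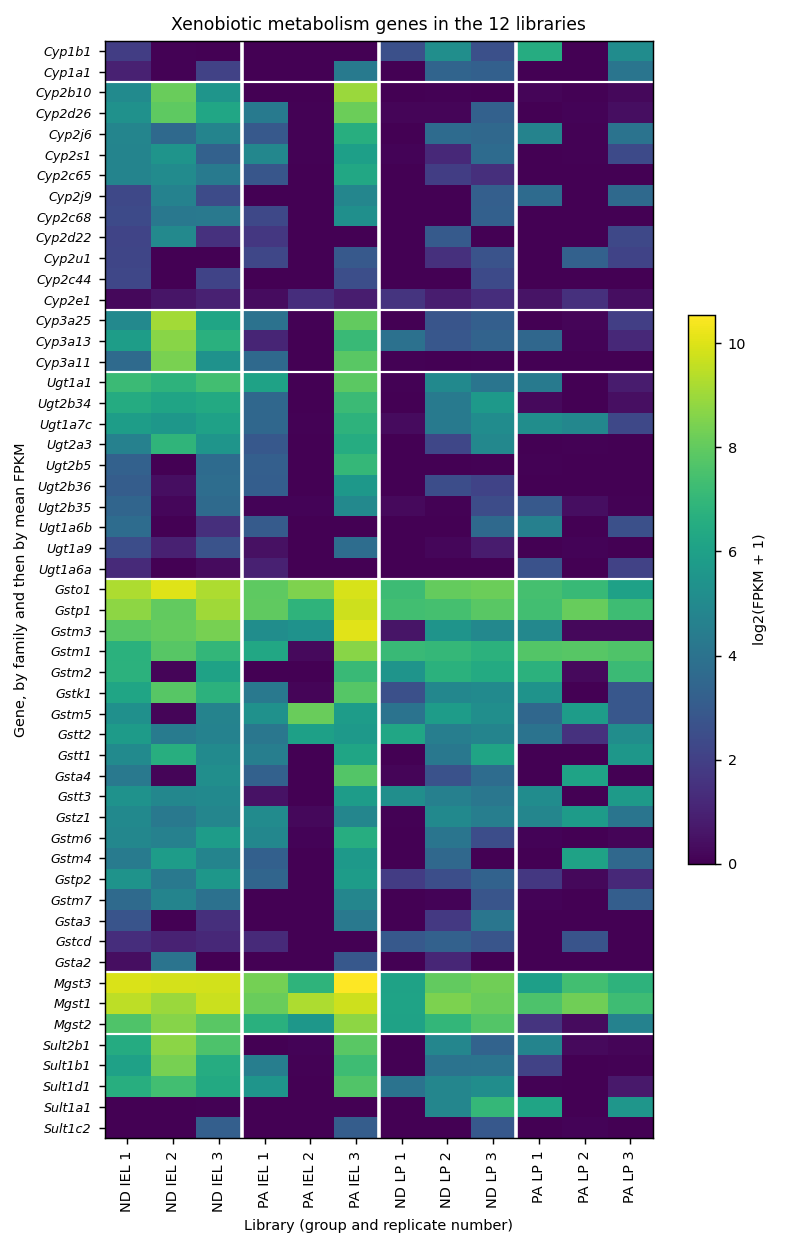
Level of each of the 53 genes (rows, grouped by family and ordered by mean FPKM) in each of the 12 libraries (columns, by group and replicate number), as log2(FPKM + 1). Most rows are bright in the 3 ND IEL libraries and in PA IEL replicate 3 and dark in PA IEL replicate 2, where 44 genes are under an FPKM of 1.

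Markers of enterocytes moved with these sums in part. The summed FPKM of 13 enterocyte markers was 15641, 92451 and 23714 in ND IEL, 5549, 4506 and 56147 in PA IEL, 167, 2993 and 939.8 in ND LP and 580.4, 506 and 49.97 in PA LP. The same 2 libraries, ND IEL replicate 2 and PA IEL replicate 3, held the most of both, and both sums were lower in PA IEL replicates 1 and 2 than in every ND IEL library. Elsewhere the 2 sums parted. PA IEL replicates 1 and 2 held more of the markers than every LP library. Their sums over the 53 genes, 1782 and 1627, were yet below the 1930 and 2224 of ND LP replicates 2 and 3. The part of enterocyte RNA in the levels of the 53 genes was not tested. All 13 markers had a fitted value higher in IEL than in LP within each diet, and by limma 1 of them passed the adjusted threshold in ND and 4 in PA milk.

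**Figure D2:**
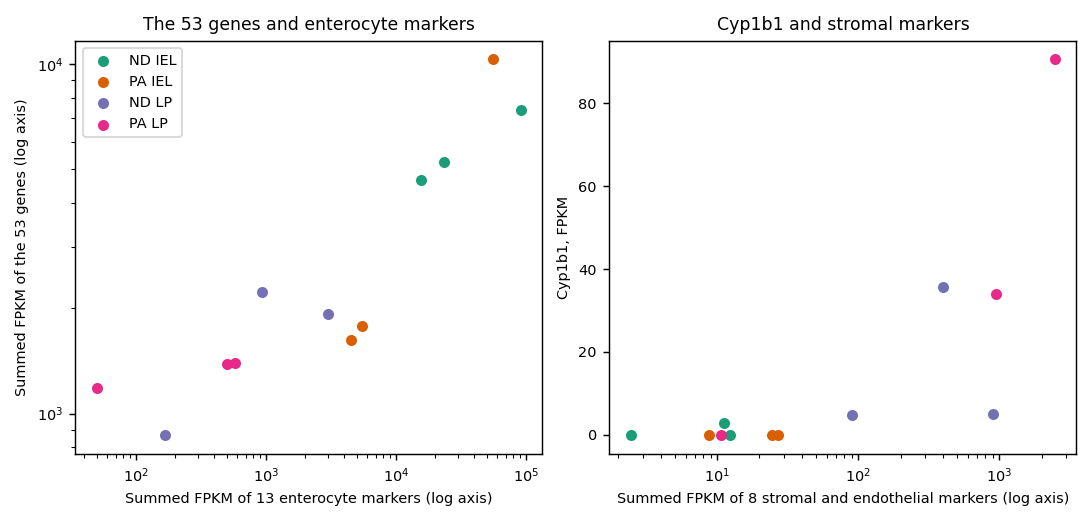
Left, summed FPKM of the 53 genes (vertical, log axis) against summed FPKM of 13 enterocyte markers (horizontal, log axis). Right, FPKM of Cyp1b1 (vertical) against summed FPKM of 8 stromal and endothelial markers (horizontal, log axis). Each point is 1 library, coloured by group. PA IEL replicate 3 and ND IEL replicate 2 are at the upper right of the left panel. The 3 libraries with Cyp1b1 above 30 FPKM all hold over 400 FPKM of stromal and endothelial markers. ND LP replicate 3 holds 906 FPKM of these markers with Cyp1b1 at only 5.03.

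The 3 Cyp3 genes, the P450 enzymes of broadest drug specificity, ranged widely between libraries. Their summed FPKM was 98.2, 1283 and 215 in ND IEL, 26.99, 0.0426 and 632 in PA IEL, 14.3, 12.1 and 17.6 in ND LP and 10.5, 0.173 and 4.15 in PA LP. Cyp3a25 was at 30.1, 537 and 71.4 in ND IEL, 14.8, 0.0426 and 260.1 in PA IEL, 0, 5.92 and 8.26 in ND LP and 0, 0.107 and 2.85 in PA LP. Cyp3a13 was at 56.8, 402 and 104 in ND IEL, 1.15, 0 and 141 in PA IEL, 14.3, 6.203 and 9.29 in ND LP and 10.5, 0.0664 and 1.298 in PA LP. In both, the 3 ND IEL values were above all ND LP values. Cyp3a11, the main hepatic and intestinal Cyp3a enzyme of the mouse, was at 11.4, 344 and 40.03 in ND IEL, 11.03, 0 and 231 in PA IEL, 0.0391, 0 and 0.0522 in ND LP and 0, 0 and 0 in PA LP. It stood at no more than 1 read in any LP library and at 0 reads in PA IEL replicate 2, against 326 to 8146 reads in ND IEL. Cyp3a11 and Cyp3a25 are neighbours on chromosome 5 (GRCm38, chr5:145854426-145879964 and chr5:145977194-146009618, both on the minus strand). Of the 50-base words in Cyp3a25 transcripts, 26.8% also occur in other genes of the families. Most of these words, 25.2%, are shared with Cyp3a59, which was left out and reached 0.0726 FPKM at most. For Cyp3a11 the share with other genes was 6.69%, with Cyp3a41a the closest. Reads could be split between such copies.

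Among the 4 highest of the 11 Cyp2 genes, only Cyp2b10 and Cyp2d26 had all ND IEL values above all ND LP values, as the Cyp3 genes did. Cyp2b10, a target of the receptor Nr1i3 (CAR), was at 31.8, 281 and 44.3 in ND IEL, 0, 0 and 493 in PA IEL, 0, 0.0474 and 0 in ND LP and 0.0936, 0.0548 and 0.165 in PA LP. All its LP values stood for 3 reads or fewer, a floor under which values have no order. Cyp2d26 was at 39.1, 243 and 74.6 in ND IEL, 18.8, 0.0506 and 287 in PA IEL, 0.1, 0.11 and 8.71 in ND LP and 0, 0.0634 and 0.318 in PA LP. Both genes were at over 30 FPKM in every ND IEL library and higher still in PA IEL replicate 3. Cyp2j6, of the family that oxidises polyunsaturated fatty acids, was at 26.7, 11.2 and 25.7 in ND IEL, 6.79, 0.043 and 97.6 in PA IEL, 0, 11.9 and 10.8 in ND LP and 25.5, 0.0538 and 15.1 in PA LP. Cyp2s1, an extrahepatic P450 of epithelia, was at 25.9, 42.7 and 8.63 in ND IEL, 28.3, 0.0302 and 61.7 in PA IEL, 0.0597, 1.34 and 11.7 in ND LP and 0, 0.0378 and 4.17 in PA LP. For Cyp2j6 and Cyp2s1 the layers overlapped in both diets. The other 7 (Cyp2c65, Cyp2j9, Cyp2c68, Cyp2d22, Cyp2u1, Cyp2c44 and Cyp2e1) averaged 0.933 to 13.96 FPKM over the 12 libraries. Cyp2e1, the ethanol-oxidising P450, stayed between 0.168 and 1.98 in all of them.

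The 2 Cyp1 genes differed from each other. Cyp1b1, an extrahepatic P450 of steroids and polycyclic aromatics, was at 2.76, 0.0317 and 0 in ND IEL, 0.0208, 0 and 0 in PA IEL, 4.88, 35.7 and 5.03 in ND LP and 90.5, 0.0185 and 34.1 in PA LP. It was highest in LP, where PA LP replicate 2 alone stood at 1 read, and in IEL only ND replicate 1 held more than 2 reads. The 8 stromal and endothelial markers, collagens and vessel genes among them, summed to 11.3, 2.44 and 12.4 in ND IEL, 24.7, 27.2 and 8.74 in PA IEL, 90.3, 401 and 906 in ND LP and 2496, 10.7 and 955 in PA LP, so they were also highest in PA LP replicate 1 and lowest within LP in PA LP replicate 2. The order was not kept elsewhere, since ND LP replicate 3, with markers at 906, had Cyp1b1 at 5.03, and ND LP replicate 2, with 401, had 35.7. The part of such cells in the level of Cyp1b1 was not tested. Cyp1a1, the classic target of Ahr, was at 0.96, 0.0323 and 3.25 in ND IEL, 0, 0 and 18.8 in PA IEL, 0, 9.58 and 8.297 in ND LP and 0, 0 and 16.1 in PA LP, with 5 of 12 libraries over an FPKM of 1, drawn from all 4 groups.

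The 10 Ugt genes add glucuronic acid, Ugt1a1 to bilirubin among others. Ugt1a1 was at 143, 110.2 and 164 in ND IEL, 66.3, 0 and 239 in PA IEL, 0.0518, 30.8 and 16.2 in ND LP and 19.2, 0 and 0.76 in PA LP. Ugt2b34 was at 89.3, 69.4 and 82.98 in ND IEL, 10.5, 0.0256 and 145 in PA IEL, 0.0254, 18.5 and 50.8 in ND LP and 0.219, 0 and 0.354 in PA LP. Both were over 69 FPKM in every ND IEL library and near 0 in PA IEL replicate 2. Ugt1a7c was at 58.2, 47.04 and 64.9 in ND IEL, 10.5, 0.0472 and 111 in PA IEL, 0.253, 19.05 and 34.2 in ND LP and 34.7, 28.4 and 3.94 in PA LP. Ugt2a3 was at 23.9, 119 and 44.2 in ND IEL, 6.43, 0 and 91.8 in PA IEL, 0, 3.72 and 29.5 in ND LP and 0, 0.0478 and 0 in PA LP. Their sum over the family was even in ND IEL, 359.5, 347 and 399.5, and ran from 0.142 to 807 in PA IEL. The 5 Ugt1a genes lie in 1 locus, chr1:88070800-88220002, where they share their last exons. Between 52.1% (Ugt1a6a) and 79.8% (Ugt1a6b) of their 50-base words occur in another gene, and the split of reads between them is uncertain.

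Sulfotransferases fell into 2 kinds. Sult2b1, which sulfates cholesterol, was at 89.3, 413 and 193 in ND IEL, 0, 0.0784 and 229.9 in PA IEL, 0, 27.3 and 9.13 in ND LP and 26.003, 0.197 and 0.0985 in PA LP. Sult1b1 was at 64.8, 334 and 90.9 in ND IEL, 21.7, 0.0304 and 154 in PA IEL, 0, 15.1 and 15.5 in ND LP and 3.18, 0 and 0.0382 in PA LP. Sult1d1, which acts on catecholamines, was at 96.2, 162 and 82.6 in ND IEL, 43.7, 0 and 204 in PA IEL, 14.97, 27.9 and 34.8 in ND LP and 0.0356, 0 and 0.669 in PA LP. In these 3 the ND IEL libraries were above all ND LP libraries. Sult1a1, the phenol sulfotransferase, went the other way at 0, 0 and 0.0559 in ND IEL, 0, 0 and 0 in PA IEL, 0, 27.8 and 128 in ND LP and 69.9, 0 and 45.6 in PA LP, and only 1 of the 6 IEL libraries had any read. The fifth, Sult1c2, passed an FPKM of 1 in 3 libraries, each of another group, and reached 8.26 at most.

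Of the 19 glutathione transferases, a few were present at high levels in both layers and others were near 0 in much of LP. Gsto1, of the omega class, was at 604, 1056 and 606 in ND IEL, 243, 363 and 951 in PA IEL, 149, 262 and 285 in ND LP and 172, 135 and 63.9 in PA LP. Gstp1, of the pi class, was at 433, 254 and 526 in ND IEL, 252, 114 and 866 in PA IEL, 162, 174 and 228 in ND LP and 161, 270.5 and 153 in PA LP. Each was over 60 FPKM in all 12 libraries. Gstm3 was at 232, 268 and 328 in ND IEL, 34.5, 40.8 and 1086 in PA IEL, 0.508, 42.4 and 29.2 in ND LP and 29.1, 0.183 and 0.184 in PA LP, and its 3 lowest values lay in LP. Gstm1 was at 107, 223 and 124 in ND IEL, 78.7, 0.201 and 404 in PA IEL, 139, 128 and 109 in ND LP and 207, 226 and 197 in PA LP, near 0 in PA IEL replicate 2 and at over 75 in the other 11. The other 15 Gst genes averaged 1.98 to 67.0 FPKM. Gstp2 shares 49.1% of its 50-base words with Gstp1, its neighbour on chromosome 19, and the 7 Gstm genes stand in 1 cluster on chromosome 3 (chr3:107895821-108044894).

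Mgst3, Mgst1 and Mgst2 encode microsomal proteins that join glutathione to lipid peroxides or to leukotriene precursors. Mgst3, the highest of the 53 genes by mean, was at 991, 937 and 907 in ND IEL, 324, 114 and 1491 in PA IEL, 65.7, 256 and 304 in ND LP and 60.9, 162 and 110.3 in PA LP. Mgst1 was at 719, 501 and 839 in ND IEL, 282, 607 and 851 in PA IEL, 67.8, 353 and 279 in ND LP and 195, 301 and 151 in PA LP. Both were found in all 12 libraries. Mgst2 was at 199.9, 395 and 232 in ND IEL, 101, 46.6 and 434 in PA IEL, 66.2, 124 and 209.5 in ND LP and 2.04, 0.239 and 24.2 in PA LP, with the PA LP libraries below the 9 others.

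**Figure D3:**
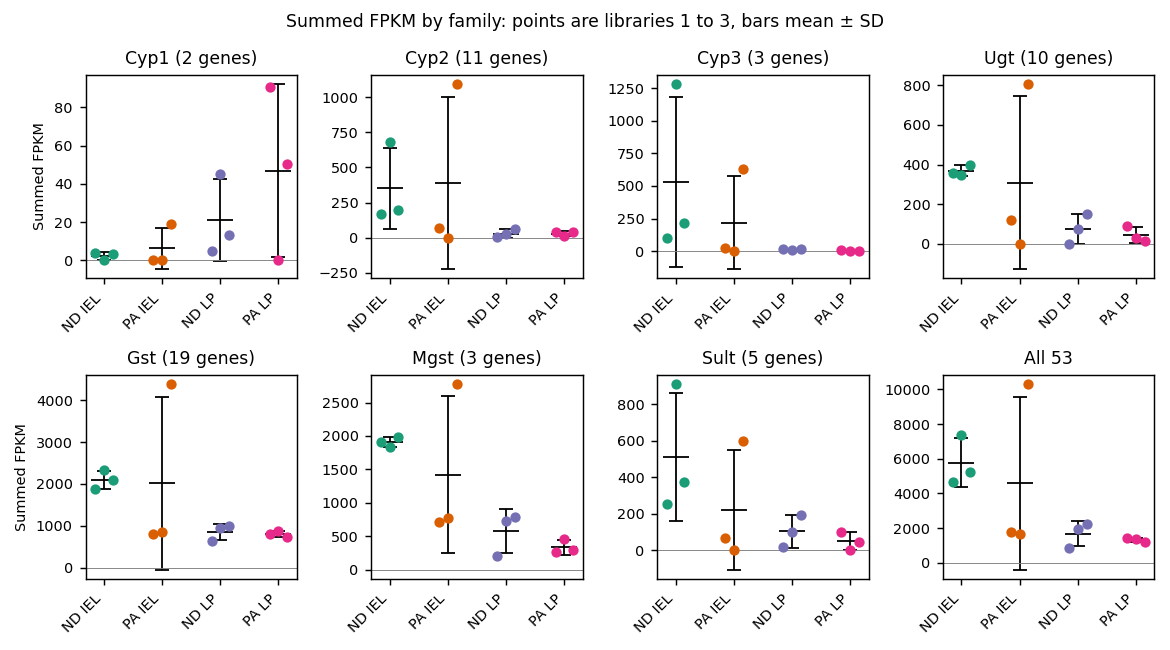
Summed FPKM of each family and of all 53 genes (vertical axis, linear, each panel on its own scale) by group (horizontal axis); points are libraries, horizontal bars are the mean and whiskers the SD over 3 libraries. In all 8 panels PA IEL replicate 3 is far above the other two PA IEL libraries, and the ND IEL libraries are close together for Ugt, Gst and Mgst; in the Cyp1 panel the highest value is in PA LP.

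Promoter windows of RefSeq (GRCm38.p6, 250 bases before to 50 after each start) were at hand for 47 of the 53 genes, 59 windows in all. Among the motifs searched on both strands were CAAAGTCC, a core read by the nuclear receptor Hnf4a of gut epithelium, TGATAAG, read by Gata factors, TGACNNNGC, the antioxidant response element of Nfe2l2 (Nrf2), and GCGTG, the core read by Ahr with Arnt. CAAAGTCC stood in the windows of 4 genes (Cyp3a11, Cyp2c65, Cyp2c68 and Sult1b1), 6.78% of the 59 windows, and in 1.42% of all 32851 windows, TGATAAG in 6.78% against 2.30%, TGACNNNGC in 10.2% against 12.4% and GCGTG in 27.1% against 32.4%. These matches describe letters and not binding. Shown are the 150 bases before the RefSeq start of 3 genes that were at or near 0 reads in LP or in PA LP and hold CAAAGTCC (Cyp3a11, chr5:145879855-145880004, minus strand; Cyp2c65, chr19:39060856-39061005, plus; Cyp2c68, chr19:39741102-39741251, minus), and of both Cyp1 genes, the known Ahr targets (Cyp1a1, chr9:57697463-57697612, plus; Cyp1b1, chr17:79715062-79715211, minus). Capitals mark CAAAGTCC in the first 3 and GCGTG in the last 2, in Cyp1b1 as its complement CACGC.
Cyp3a11: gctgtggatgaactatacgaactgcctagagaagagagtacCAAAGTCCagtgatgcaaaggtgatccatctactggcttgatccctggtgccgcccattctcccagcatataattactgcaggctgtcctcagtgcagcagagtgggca
Cyp2c65: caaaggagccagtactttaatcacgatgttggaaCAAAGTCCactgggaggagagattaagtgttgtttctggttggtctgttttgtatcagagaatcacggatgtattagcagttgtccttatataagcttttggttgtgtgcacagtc
Cyp2c68: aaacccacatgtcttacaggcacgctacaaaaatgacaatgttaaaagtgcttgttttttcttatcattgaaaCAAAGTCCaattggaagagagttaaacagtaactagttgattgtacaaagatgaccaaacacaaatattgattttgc
Cyp1a1: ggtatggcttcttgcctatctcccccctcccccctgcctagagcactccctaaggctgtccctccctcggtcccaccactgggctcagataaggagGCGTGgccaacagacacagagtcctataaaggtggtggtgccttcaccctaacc
Cyp1b1: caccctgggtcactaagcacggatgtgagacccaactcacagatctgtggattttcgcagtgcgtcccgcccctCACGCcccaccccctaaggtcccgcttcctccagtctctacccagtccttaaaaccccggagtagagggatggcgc
The capitals begin 109, 116 and 77 bases before the start in Cyp3a11, Cyp2c65 and Cyp2c68, and 54 and 76 in Cyp1a1 and Cyp1b1. Sult1b1, the other gene with CAAAGTCC, is not shown and was at 3.18 FPKM in PA LP replicate 1. In all, 13 genes were at or under 3 reads in every PA LP library. Of these, Cyp2b10, Gsta2, Gsta3, Gstm6, Sult1c2, Ugt1a9, Ugt2a3, Ugt2b36 and Ugt2b5 hold no CAAAGTCC in their windows. Cyp2c44, also among them, had no window. Among the Cyp genes, the highest PA LP values were 90.5 FPKM in Cyp1b1, 25.5 in Cyp2j6, 16.1 in Cyp1a1, 11.8 in Cyp2j9 and 10.5 in Cyp3a13. Cyp1a1 was at 0 in the other PA LP libraries.

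Layers were compared first within ND mice, since this comparison holds no diet. The 23 genes higher in all 3 ND IEL than in all 3 ND LP libraries made up 43.4% of the 53, against 9.95% of the 12502 genes tested. They took in all 3 Cyp3 genes, Cyp2b10, Cyp2c65 and Cyp2d26, 4 Ugt genes (Ugt1a1, Ugt1a7c, Ugt1a9, Ugt2b34), 8 Gst genes (Gstk1, Gstm3, Gstm4, Gstm6, Gstm7, Gsto1, Gstp1, Gstp2), Mgst1 and Mgst3, and Sult1b1, Sult1d1 and Sult2b1. Higher in all ND LP libraries were 2, Cyp1b1 and Gstcd, against 9.34% of all genes. The median log2 fold change of IEL over LP, on the scale of log2(FPKM + 1), was 1.87 for the 53 genes and -0.09 for all genes, and 43 of the 53 were above 0 against 46.4% of all genes. Without ND LP replicate 1, the ND LP library lowest in these genes, the median was 1.15. Part of this follows from the rule, since 16 genes reached an FPKM of 1 in 3 or more IEL but fewer than 3 LP libraries. Of the 30 genes that did so in both layers, 15 were among the 23. The matching share of all genes tested was not worked out, so this count cannot be set against a background.

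By limma over all 12502 genes none of the 53 passed an adjusted p of 0.05 in ND, where 4 genes in all (0.032%) did. At an unadjusted p under 0.05 there were 16, 15 of them higher in IEL, against 6.63% of all genes. With limma-voom on worked-out reads none of the 53 was called either, and 12 were at an unadjusted p under 0.05 (all genes 5.94%). The 4 smallest p-values were those of Cyp3a11, Cyp2b10, Cyp2d26 and Mgst3. Cyp3a11 had a log2 fold change of 5.76 (SE 1.67, limma adjusted p = 0.325, range over alternatives 0.00777 to 0.988). Cyp2b10 had one of 6.203 (SE 1.86, limma adjusted p = 0.330, range 0.0123 to 0.988). For these 2 genes ND LP held at most 1 read per library, so the size rests on the pseudocount of 1 and is no bound. Cyp2d26 had a log2 fold change of 5.31 (SE 1.68, limma adjusted p = 0.382, range 0.00817 to 1) and Mgst3 one of 2.45 (SE 0.78, limma adjusted p = 0.386, range 0.00911 to 0.968). With weights for library quality 15 of the 53 were called, all but Sult1a1 higher in IEL, against 6.343% of all genes. Without PA IEL replicate 3, which enters through the shared spread, 1 was called (Cyp2b10), against 0.112% of all genes. Without ND LP replicate 1 the count at an unadjusted p under 0.05 was 6 (all genes 5.975%), and without ND IEL replicate 2 it was 10 (all genes 4.34%).

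In PA milk mice the layers overlapped for nearly all of these genes. Higher in all 3 IEL libraries were Gstm3, Gsto1 and Mgst2, 3 of 53 against 4.06% of all genes, and none was higher in all 3 LP libraries, against 4.51%. Without PA IEL replicate 2 the count higher in IEL was 20 (all genes 14.1%), and without the libraries of fewest genes, PA IEL replicate 2 and PA LP replicate 2, it was 25 (all genes 19.6%). The median log2 fold change was 1.34 (all genes -0.03), with 39 of 53 above 0 against 48.3% of all genes, and it was 0 without PA IEL replicate 3 and 2.06 without PA IEL replicate 2. With groups at or under 3 reads set to that floor it was 1.29.

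None of the 53 was called by limma in PA milk, where 18 genes in all (0.144%) were, and limma-voom called none of the 53 and 12 of all genes. At an unadjusted p under 0.05 limma had 14, 12 of them higher in IEL, against 10.6% of all genes, and limma-voom had 7 (all genes 9.49%). Mgst2 had a log2 fold change of 4.81 (SE 1.07, limma adjusted p = 0.127, range over alternatives 0.0280 to 0.845). Gsto1 had one of 1.93 (SE 0.56, limma adjusted p = 0.277, range 0.122 to 0.845), with every PA IEL value above every PA LP value. Gstm3 had one of 5.07 (SE 1.57, limma adjusted p = 0.329, range 0.207 to 0.845) and Sult1d1 one of 4.12 (SE 1.49, limma adjusted p = 0.404, range 0.00289 to 0.845). Without PA IEL replicate 2 and PA LP replicate 2, 4 of the 53 passed, against 2.51% of all genes. They were Sult1d1 (6.19), Gstm6 (5.60) and Mgst2 (4.59) higher in IEL and Cyp1b1 (-5.81) higher in LP. Gstm6 in PA LP and Cyp1b1 in PA IEL held at most 1 read per library, so the sizes for these genes rest on the pseudocount and are no bound. Leaving out PA IEL replicate 2 alone left Sult1d1 called (all genes 0.176%), PA LP replicate 2 alone Cyp1b1 (all genes 2.31%), and PA LP replicate 3 alone Mgst2 (all genes 0.264%).

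**Figure D4:**
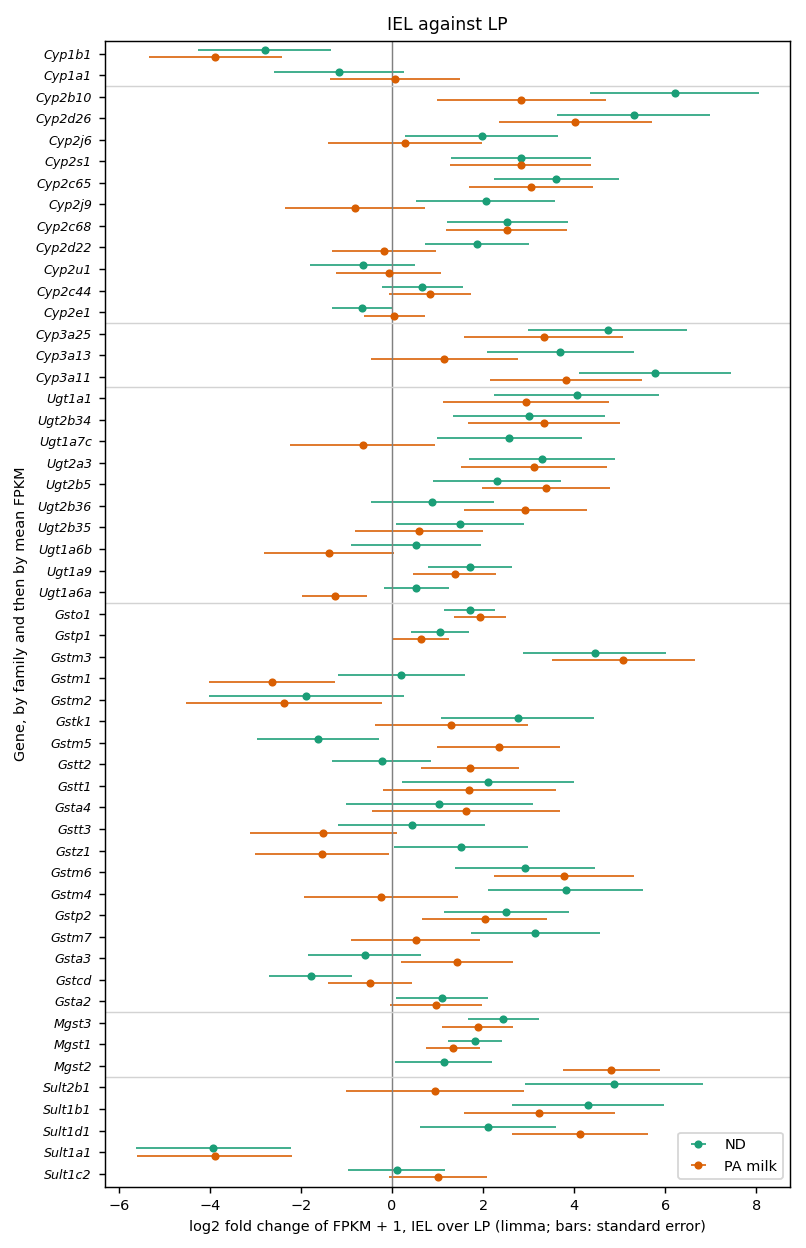
Log2 fold change of FPKM + 1, IEL over LP (horizontal axis), for each of the 53 genes (vertical axis, by family and mean level), in ND (green) and PA milk (orange); bars are the standard error from limma. In ND 43 points and in PA milk 39 lie to the right of 0, and no gene passed the adjusted threshold.

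PA milk was then compared with ND in IEL. The 53 genes were lower in PA IEL by a median log2 fold change of -1.23, against -0.30 for all genes, and 9 were above 0 against 38% of all genes. Part of this follows from the rule, since 19 of the 53 genes reached an FPKM of 1 in 3 or more ND but fewer than 3 PA milk libraries and 0 did so the other way. Neither limma nor limma-voom called any of them or any other gene. At an unadjusted p under 0.05 limma had 3 of the 53 and 447 of all genes (3.58%), and limma-voom had 3 of the 53 and 616 of all. The groups overlapped in all but 1 gene. None was lower in all 3 PA IEL than in all 3 ND IEL libraries (all genes 5.22%), and Gstm5 alone was higher, at 38.8, 276.8 and 55.3 against 38.6, 0.111 and 25.3 FPKM (all genes 2.97%). This separation rests on 38.8 against 38.6 and was gone with scaling by the upper quartile and on genes common to leukocytes. With the latter Cyp2d22 and Gstcd were lower in all 3 PA IEL libraries (all genes 4.19%). PA IEL replicate 2 was at or near 0 for most of the families and PA IEL replicate 3 was the highest library for 29 genes. Of the markers, 12 of 13 enterocyte genes (median -1.38) and 15 of 16 general epithelial genes (-2.21) also had a fitted value lower in PA IEL. So did 7 of 7 Paneth cell genes (-3.41) and 5 of 6 goblet cell genes (-3.05). None of these markers was called, and their part in the levels was not tested. Without PA IEL replicate 2 the median was -0.20 (all genes 0.0014), and without PA IEL replicate 3 it was -2.33 (all genes -0.48). Without replicate 3 the count of genes lower in all PA IEL libraries was 32 (all genes 16.4%). There 23 of the 53 had an unadjusted p under 0.05 by limma, against 9.53% of all genes, still with none of the 53 called.

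The 4 genes with the smallest p in IEL were Cyp3a13, Sult2b1, Gstm5 and Cyp2d22. Cyp3a13 had a log2 fold change of -4.32 (SE 1.62, limma adjusted p = 0.947, range over alternatives 0.210 to 1). Sult2b1 had one of -4.94 (SE 1.96, limma adjusted p = 0.947, range 0.230 to 1). Both stood between the ND IEL values in PA IEL replicate 3 and far below them in replicates 1 and 2. Gstm5 had a log2 fold change of 3.02 (SE 1.35, limma adjusted p = 0.947, range 0.522 to 1), and its 276.8 in PA IEL replicate 2 was the highest of the 12 values. Cyp2d22 was at 3.45, 29.9 and 1.85 in ND IEL, 2.24, 0.0284 and 0 in PA IEL, 0, 7.03 and 0 in ND LP and 0, 0 and 3.89 in PA LP and had a log2 fold change of -2.29 (SE 1.14, limma adjusted p = 0.947, range 0.631 to 1).

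PA milk was compared with ND in LP as well. There most genes had a fitted value lower than in IEL, 43 of the 53 in ND and 39 in PA milk. The median log2 fold change of PA milk over ND was -0.85 (all genes -0.36), 15 of 53 genes were above 0 against 37.4% of all, with the same 19 genes having passed through ND libraries, and leaving out single libraries moved the median between -1.42 (without ND LP replicate 1) and -0.33 (without ND LP replicate 3), and to -0.47 without PA LP replicate 2 and -0.54 without ND LP replicate 2. For 14 of the 53 genes PA LP or ND LP was at or under 3 reads in every library, 3 of them in both groups. Lower in all 3 PA LP libraries were Gstcd, Gstp2, Mgst2 and Sult1d1 (all genes 6.6%), and higher were Cyp2b10, at 3 reads or fewer throughout, and Gstm1 (all genes 2.97%). The count lower was 16 without ND LP replicate 1 (all genes 13.1%), 8 without PA LP replicate 2 (all genes 10.3%) and 7 without PA LP replicate 1 (all genes 10.5%) or replicate 3 (all genes 19%). With scaling on genes common to leukocytes only Mgst2 and Sult1d1 were lower in all 3, and Gstm1 overlapped. Gstm1 was at 207, 226 and 197 in PA LP, against 139, 128 and 109 in the ND libraries.

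Limma called none of the 53 in LP and none of all genes, and limma-voom called 5 genes, none of them among the 53. At an unadjusted p under 0.05 limma had 4 of the 53 and 588 of all genes (4.7%), and limma-voom had 3 of the 53 and 736 of all genes (5.89%). Mgst2 stood at 2.04, 0.239 and 24.2 in PA LP, all below its ND LP values of 66.2, 124 and 209.5. Its log2 fold change was -4.73 (SE 1.07, limma adjusted p = 0.488, range over alternatives 0.0400 to 1), and it passed without PA LP replicate 3, at -5.96. In that setting 8 of all genes (0.064%) were called. Sult1d1 had a log2 fold change of -4.41 (SE 1.49, limma adjusted p = 0.979, range 0.117 to 1), from 0.0356, 0 and 0.669 against 14.97, 27.9 and 34.8. Gstcd had one of -2.09 (SE 0.91, limma adjusted p = 0.979, range 0.338 to 1), with PA LP at 0, 5.60 and 0. Ugt1a6a had one of 1.58 (SE 0.71, limma adjusted p = 0.979, range 0.379 to 1), from 5.34, 0 and 3.25 against 0 in all ND LP libraries. Enterocyte markers summed to 49.97 to 580 in PA LP and 167 to 2993 in ND LP, and 12 of the 13 had a fitted value lower in PA LP.

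**Figure D5:**
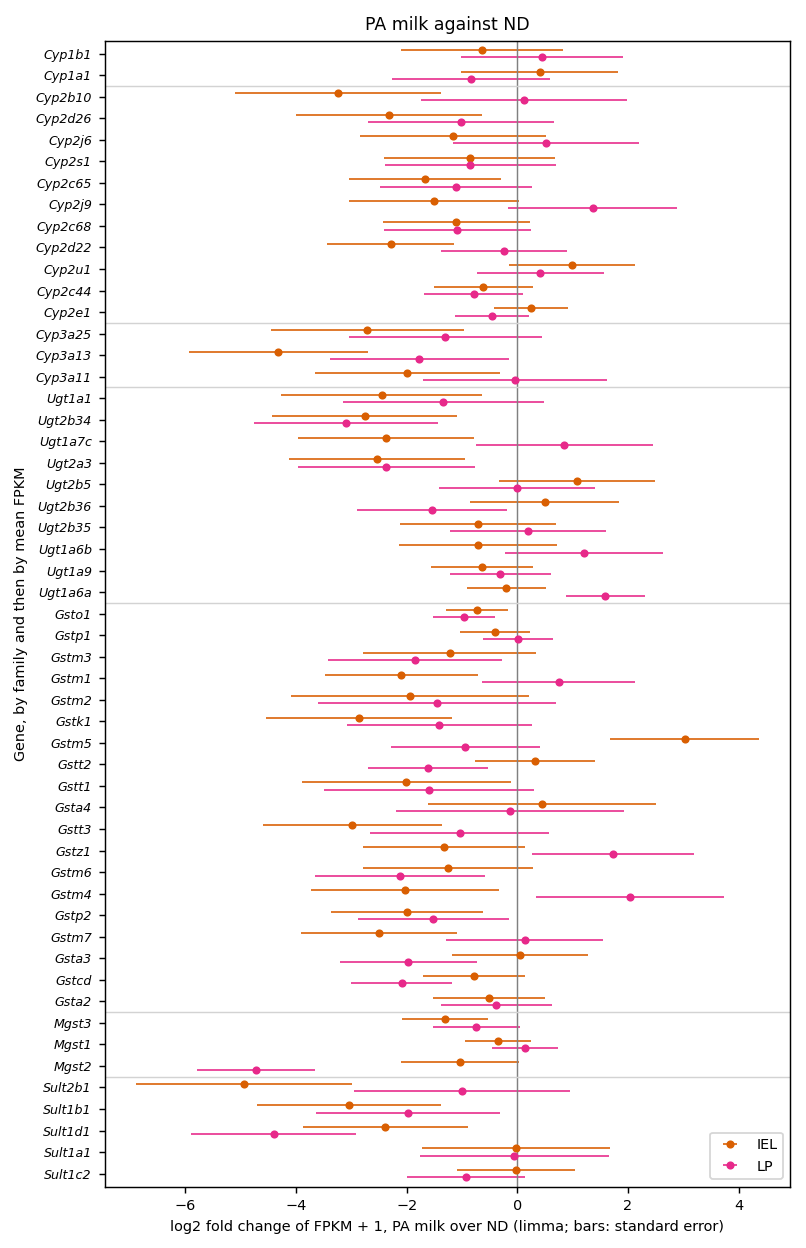
Log2 fold change of FPKM + 1, PA milk over ND (horizontal axis), for each of the 53 genes (vertical axis, by family and mean level), in IEL (orange) and LP (pink); bars are the standard error from limma. In IEL 44 points and in LP 38 lie to the left of 0, and no gene passed the adjusted threshold.

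Whether the diet difference itself differed between layers was tested as LP minus IEL in the same fit. No gene of the 53 and none of all genes was called by limma or limma-voom. At an unadjusted p under 0.05 limma had 1 of the 53 and 292 of all genes (2.34%), and limma-voom had 0 of the 53 and 377 of all. The difference was above 0 for 34 of the 53 against 49.2% of all genes, with a median of 0.48 (all genes -0.03), and the median it was -0.57 without PA IEL replicate 2, -0.12 without ND LP replicate 1 and 1.51 without PA IEL replicate 3. Mgst2 had a difference of -3.68 log2 units (SE 1.51, limma adjusted p = 0.99995, range over alternatives 0.685 to 0.99997). Gstm5 followed at -3.97 (SE 1.90), Ugt1a6a at 1.79 (SE 1.01) and Gstm4 at 4.06 (SE 2.40), each with a limma adjusted p of 0.99995 and a range from 0.875 to 0.99997.

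Genes that regulate or accompany these enzymes were read from lists. Of 7 tested genes of the Ahr pathway, none was called by limma in any comparison. Ahr itself was at 6.08, 0 and 13.03 in ND IEL, 8.41, 0 and 5.18 in PA IEL, 45.2, 8.82 and 10.6 in ND LP and 0, 8.36 and 13.2 in PA LP, with a log2 fold change of PA milk over ND of -0.26 in IEL (SE 1.44, limma adjusted p = 1, range over alternatives 0.898 to 1) and -1.77 in LP (SE 1.44, limma adjusted p = 0.979, range 0.602 to 1). Ahrr, the Ahr repressor, had -0.91 in IEL (SE 0.73, limma adjusted p = 0.947, range 0.670 to 1). Neither gene differed beyond the spread between libraries.

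Of 9 tested genes of the Nrf2 response, none was called in any comparison. Nfe2l2, which encodes Nrf2 and switches on many Gst genes, had -1.81 in IEL (SE 1.25, limma adjusted p = 0.947, range 0.490 to 1) and -0.27 in LP (SE 1.25, limma adjusted p = 0.999, range 0.603 to 1). Hmox1, heme oxygenase, was at 73.7, 629 and 87.7 in ND IEL, 263, 1735 and 367 in PA IEL, 447, 121 and 120.0 in ND LP and 684, 1945 and 197 in PA LP. It had 1.78 in IEL (SE 0.94, limma adjusted p = 0.947, range 0.412 to 1), and its highest values were in the libraries of fewest genes, PA IEL and PA LP replicate 2.

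None of 11 nuclear receptors and epithelial factors was called. Nr1i2 (PXR), the receptor that induces Cyp3a genes, was at 6.69, 0.675 and 3.04 in ND IEL, 1.54, 34.3 and 6.397 in PA IEL, 0, 4.15 and 16.1 in ND LP and 19.3, 20.95 and 0 in PA LP. Its log2 fold change was 1.22 in IEL (SE 1.52, limma adjusted p = 0.960, range 0.730 to 1) and 0.78 in LP (SE 1.52, limma adjusted p = 0.981, range 0.620 to 1). Nr1h4, the bile acid receptor, had -3.71 in LP (SE 1.198, limma adjusted p = 0.979, range 0.387 to 1).

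None of 10 transporters was called. Slc22a4, a carrier of organic cations, had -2.69 in IEL (SE 1.33, limma adjusted p = 0.947, range 0.436 to 1), and Abcg2, an efflux pump of drugs and conjugates, had -2.20 (SE 1.29, limma adjusted p = 0.947, range 0.432 to 1). Other phase I genes (carboxylesterases, aldehyde and alcohol dehydrogenases, aldo-keto reductases and others) numbered 36 tested, none called, with 29 higher in ND IEL than in ND LP and a median of 1.48. Other phase II genes numbered 12, none called, with 8 higher and a median of 0.78. In PA milk the medians of IEL over LP were 0.78 and -0.05.

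Other cell type markers showed no call by limma in any of the 5 comparisons. Of 16 general epithelial markers, 15 were higher in IEL in ND and 16 lower in PA LP than in ND LP. Goblet cell markers were lower in ND IEL than in ND LP for 6 of 6, and Paneth cell markers lower in PA IEL than in PA LP for 7 of 7. Stromal and endothelial markers were lower in IEL for 8 of 8 in both diets. Fitted medians of PA milk over ND in LP were -4.45 for 5 B and plasma cell markers, -1.25 for 6 T cell markers, -0.68 for 5 macrophage markers, -0.93 for 3 mast cell markers, -0.21 for 8 leukocyte genes and -1.66 for 14 genes of the ILC3 sort. In IEL they were -0.35, -1.90, -0.06, -3.93, 0.20 and 0.75. For 6 goblet cell markers the medians were larger in size in LP, at -5.15, and were -3.05 in IEL, with 5 of 6 lower in PA milk in each layer.

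Genes at the border of the rule were Gsta2, Sult1c2, Ugt1a6a and Ugt1a9, which reached an FPKM of 1 in exactly 3 libraries with maxima of 15.8, 8.26, 5.34 and 12.6, and Cyp2c55, Cyp2c66, Cyp2r1 and Ugt8a, which did so in 2 and were left out, with maxima of 22.8, 34.0, 7.30 and 3.24. Among the 53, 13 genes were at 1 or more in at least 10 libraries, and 5 in all 12 (Gsto1, Gstp1, Gstt2, Mgst1 and Mgst3). Gstt2, of the theta class, averaged 33.5 FPKM.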

How the data were processed

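Per the labels and the methods of the study, RNA of ILC3s sorted from 12 samples was sequenced, mapped to mm10 with TopHat2 2.1.1, Bowtie2 2.2.8.0 and SAMtools 0.1.18, and quantified with Cufflinks 2.2.1. Cuffdiff 2.2.1 is also named in the submitters' notes. The gene annotation is not given in the sources used here. The authors deposited FPKM values and a table of counts that they had scaled by library and rounded, a signal and not raw counts. From both, reads were worked out as multiples of a step per library, giving 8.76 to 14.6 M reads, with 90.4% to 99.0% of low values within 0.05 of a whole multiple. The step was chosen to bring these same values, 48 to 667 per library, close to whole multiples, so that share is no test of it. For the 3713 genes with a scaled count of 2000 or more, the ratio of scaled count to FPKM differed between libraries by up to 120% within a gene. The reads are thus estimates. A floor of 3 reads covers counting error only.

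Groups came from the labels. The 12502 genes at an FPKM of 1 or more in 3 or more libraries entered 1 fit of 4 group means in limma 3.58.1 (R 4.3.3) on log2(FPKM + 1), and the Benjamini-Hochberg adjustment was used (threshold 0.05). The pseudocount of 1 understates changes of low genes. The test planned for raw counts was not used because the counts are scaled. With 3 libraries against 3, an exact permutation test cannot go below p = 0.1. Levels in every library were given for the first 4 genes of a family by mean FPKM, and statistics for the 4 smallest p-values of a comparison, for Ahr, Nfe2l2 and Nr1i2, and for the 2 smallest of each list of regulators and transporters. The enzyme families, lists and rules were chosen with earlier results of these data known, and list results are descriptions without a test. Replicate numbers were checked for pairing by correlating the libraries' deviations from their group means. Between the IEL and LP libraries of a diet, correlations ran from -0.031 to 0.060 for same numbers and from -0.077 to 0.13 for unlike numbers. Over all same-numbered pairs, those across diets included, they ran from -0.12 to 0.12. Pairing could thus not be assumed from the numbers. Positions are from GENCODE vM21 (GRCm38, named mm10 by the authors), which matched 52 of the 53 genes. Tables were made with Python 3.11.15, pandas 2.3.3 and numpy 2.4.6, plots with matplotlib 3.10.9. Values of some genes under these rules and 1 of the 5 motifs searched are not reported here. Flow cytometry and other experiments of the study were not analysed here.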

Additional observations from a re-analysis of the deposited data

How the results depend on the processing

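Counts of the 53 genes called were 0 in the diet comparison of IEL and in the difference between layers under every alternative run. In LP the count was 0 to 1 when single libraries were left out, the 1 being Mgst2 without PA LP replicate 3. In the layer comparison of ND it was 1 with only the 6 libraries of the comparison, 15 with weights for library quality, and 0 to 1 when single libraries were left out. In that of PA milk it was 2 with the weights, 4 without the 2 libraries of fewest genes, 3 without the 3 of fewest, and 0 to 1 when single libraries were left out. The number higher in all IEL libraries in PA milk was 1 with scaling on genes common to leukocytes, 25 without the 2 and without the 3 libraries of fewest genes, and 3 to 20 when single libraries were left out; in ND it was 23 to 29 when they were, 22 with scaling by the upper quartile and 19 with scaling on leukocyte genes. Fewer libraries to overlap raise such counts by construction; for the other shifts the cause was not tested. A block was also tried, the replicate number for the diet comparisons and their difference. For the layers it was the replicate number within a diet, which pairs same-numbered IEL and LP libraries. With these blocks, 0 of the 53 genes were called in each of the 5 comparisons. The counts over all genes were 0 and 3 for the diet in IEL and LP, 0 for their difference, and 0 and 5 for the layers in ND and PA milk.

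Over all genes, the layer comparison of ND called 4, against 793 with quality weights, 92 with the 6 libraries alone, 113 and 74 without the 2 and 3 libraries of fewest genes and 0 by limma-voom. That of PA milk called 18, against 134, 1, 314, 355 and 12. Leaving out single libraries gave 0 to 65 and 1 to 289, the highest of each without PA LP replicate 2. The median of the 53 genes for the diet in IEL ran from -2.92 by limma-voom to -0.12 without the 3 libraries of fewest genes, and that of the difference between layers turned to -0.47 with weights and -0.49 and -0.58 without the 2 and 3 of fewest. The diet called 0 to 1 genes in IEL and 0 to 8 in LP. Of 750 values of named genes under alternatives, 721 kept their direction and side of the threshold, 15 passed it and 14 changed sign. The sign changes in IEL were in Abcg2 (0.055 without the 3 libraries of fewest genes), Ahr (0.72 without the 2 of fewest, and -1.36 to 0.72 when single libraries were left out) and Nr1i2 (-0.20 with weights, -0.36 without the 3 of fewest). Those in LP were in Nfe2l2 (0.63 with weights, 1.19 without the 2 or 3 of fewest, and -1.25 to 1.19 when single libraries were left out) and Nr1i2 (-0.056 with weights, -0.30 to 2.25 when single libraries were left out). Leaving out the sparsest libraries and limma-voom were chosen after the data were seen. The edgeR and DESeq2 fits listed in advance were not run, since raw counts could not be recovered. Genes at 3 reads or fewer limit what the LP values show.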
